A study of Rattus norvegicus with 9 samples.

Results

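Tissue taken beside bladder tumors was compared with the bladder wall of separate normal rats, gene by gene across the rat genome. The comparison used 6 of the 9 arrays of the study, chosen by their titles alone: 3 of adjacent normal tissue from female SD (Sprague-Dawley) rats with bladder transitional cell carcinoma and 3 of bladder tissue from normal SD rats. The other 3 arrays hold the tumors of the same rats that gave the adjacent tissue. The tumors were raised with MNU (N-methyl-N-nitrosourea), an alkylating carcinogen that was put into the bladder at 20 mg/ml each week for 10 weeks. The sample labels repeat this text and an age of 10 weeks for all 9 samples, the normal ones included, whereas the design describes the last 3 donors as normal rats. Exposure to MNU as the design gives it, the presence of a tumor and the identity of the animals cannot be told apart, and whether the rats were of like age at sampling is not given in the sources used here. Neither the distance of the adjacent tissue from the tumor nor its histology is given in the sources used here, and no layer of the wall was separated. RNA of whole pieces was read on Affymetrix arrays, and each value is a MAS 5.0 signal on a log2 scale, where a step of 1 is a doubling.

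The bladder wall has an inner urothelium, in which basal cells renew the layers above them and large umbrella cells at the surface make uroplakin plaques that seal the organ against urine. Below it lie a connective tissue rich in fibroblasts, vessels and nerves, and the detrusor, a thick smooth muscle that contracts when nerves release acetylcholine and ATP. After injury or carcinogen exposure, urothelium is known to thicken through division of basal cells, and it can take on squamous features such as keratins of skin and cornified envelope proteins. In whole pieces of tissue, fewer cells of a type and less RNA per cell cannot be told apart.

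One array stood apart in the ratio of 3′ to 5′ signal of its control probe sets, and the main lists are also counted without it. In adjacent 1, the control probe sets at the 3′ end of beta-actin were 26.6-fold brighter than those at the 5′ end, against 7.25-fold and 7.96-fold in adjacent 2 and 3 and 5.74-fold to 7.22-fold in the normal arrays. The same ratio for Gapdh was 3.90 in adjacent 1 and 1.34 to 1.65 in the other 5 arrays. Bacterial array controls, which are not rat genes, were skewed there too. Their ratio in adjacent 1 was 8.11 for lys, 12.7 for phe and 17.6 for dap. In the other 5 arrays it was 1.24 to 2.02, 1.97 to 2.92 and 7.74 to 9.85. For thr it was 18.1 in adjacent 1 and 13.2 to 24.6 in the others. Whether tissue RNA or its labelling set adjacent 1 apart was not tested. Normal arrays resembled each other closely (Pearson's r 0.940 to 0.946 across probe sets, which are not independent replicates), adjacent arrays less so (0.900 to 0.923), and adjacent with normal arrays least (0.838 to 0.899).

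In limma over 31042 probe sets, with Benjamini-Hochberg adjustment and a threshold of 0.05, 3531 of 14217 genes (24.8%) were called. Of these, 1895 genes (13.3%) rose and 1636 (11.5%) fell in adjacent tissue. The rises reached a factor of 4 in 315 genes and the falls in 586 genes. Without adjacent 1 the count was 4201 genes, and without normal 1, 2 or 3 it was 1670, 1664 or 1740. In 1450 genes (10.2%) the call held without each of the 6 arrays in turn, and the genes given with values below are of this kind unless an exception is stated. The median difference over all genes was 0.01 on the log2 scale. Centring each array on its median raised it to 0.21 and turned the split into 3012 higher (21.2%) and 1308 lower (9.2%) of 4320 (30.4%), so a list with a median near 0 has no direction.

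Among calls of this kind, the 12 largest rises were in Serpinb2, S100a9, S100a8, Krt6c, Il1a, Duox2, Lgals7, Cxcl1, Gpx2, Cxcl2, Fgfbp1 and Sprr1b. They encode, in the main, proteins of squamous or inflamed epithelium and of neutrophils. The 12 largest falls were in P2rx1, Ntsr2, Fhod3, Abca8a, Sh3bgr, Ngb, Adamtsl1, Ryr3, Tacr2, Dstl1, Hspb6 and Col25a1, several of which belong to muscle.

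**Figure D1:**
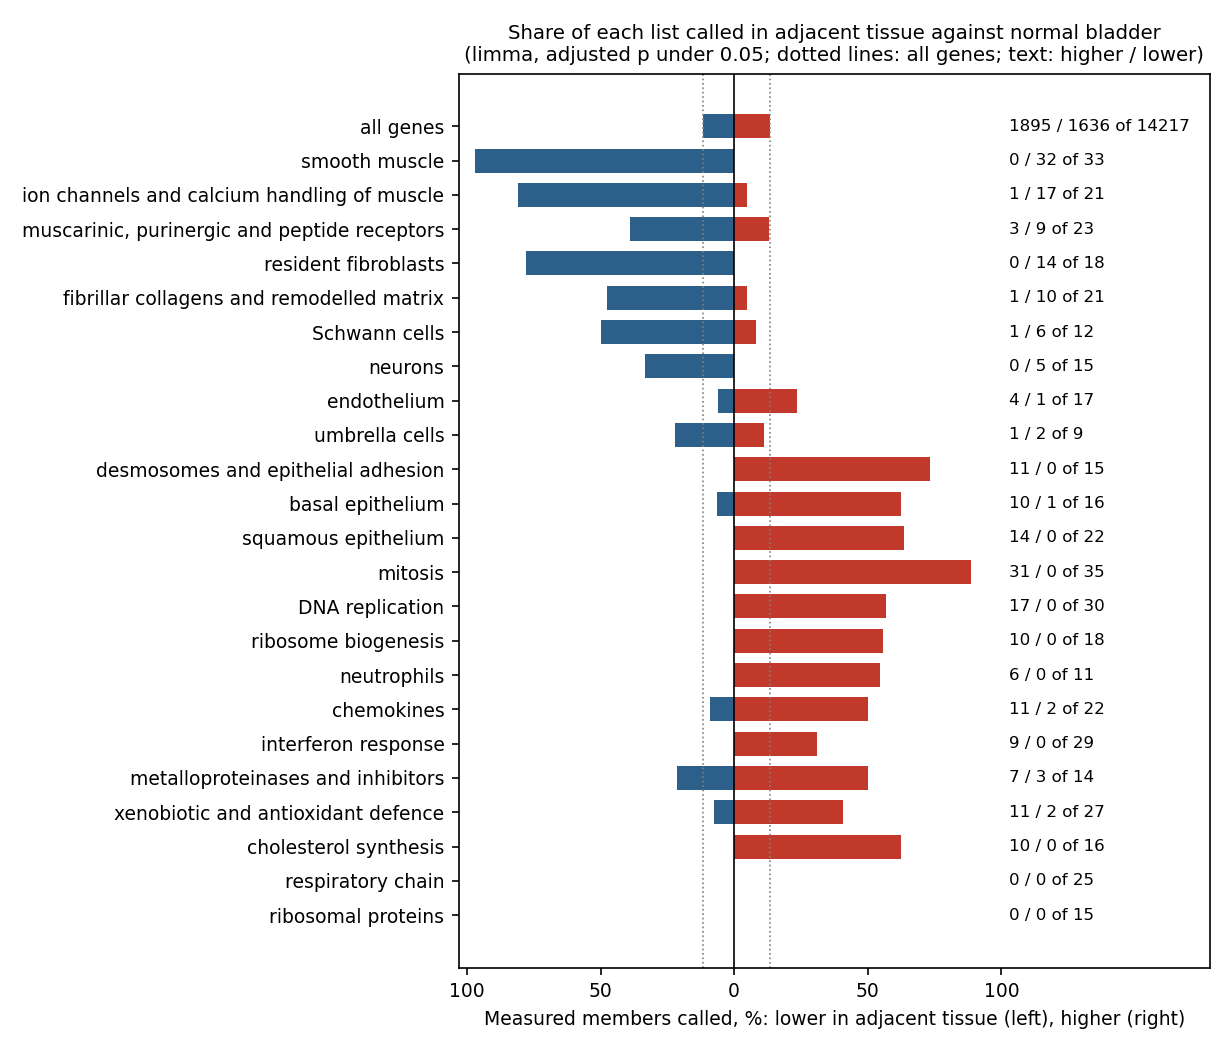
Horizontal bars give the percentage of measured genes of each list called lower (left) or higher (right) in 3 adjacent against 3 normal arrays, with the counts in text and the share over all genes as dotted lines. Smooth muscle (32 of 33 lower) and mitosis (31 of 35 higher) lie at the far ends, and none of the 25 respiratory chain or 15 ribosomal protein genes was called. The lists were chosen with earlier results of these data known.

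Smooth muscle genes fell almost without exception, in a list chosen with earlier results of these data known. Of 33 measured genes, 32 were lower in adjacent tissue and 0 higher, where 11.5% of all genes were lower, and the median difference was -2.98 on the log2 scale (-2.91 with genes under a signal of 50 set to their bound). The count was 32 without adjacent 1 and lay between 26 and 32 when any array was left out. Summed over the list, the linear signal was 33.6%, 15.96% and 10.7% of the normal mean in adjacent 1, 2 and 3, and 98.2% to 104% in single normal arrays. All 3 adjacent samples were low, adjacent 1 the least so. The one gene not called was Itga8, an integrin subunit, at 99.8% of the normal level.

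Myocd encodes myocardin, the coactivator that switches on the contractile genes with serum response factor. Its log2 signal was 8.56, 5.85 and 5.85 in adjacent 1, 2 and 3 against 10.72, 10.86 and 10.53 in normal 1, 2 and 3. The groups did not overlap, and the fall was 15.5-fold (log2 difference -3.95 ± 0.67 SE, adjusted p = 0.00651, limma). Des, which encodes the intermediate filament desmin, read 12.26, 9.95 and 9.45 in adjacent tissue and 14.28, 14.14 and 14.41 in normal bladder. This was a 13.2-fold fall (adjusted p = 0.00663, limma), again smallest in adjacent 1. Smtn, which encodes smoothelin, a protein of fully contractile smooth muscle, differed from this order: it read 7.19, 7.55 and 7.75 in adjacent tissue and 11.33, 11.40 and 11.71 in normal bladder. The 3 adjacent values lay close together, and the fall was 15.8-fold (adjusted p = 0.000241, limma). Myh11, the smooth muscle myosin heavy chain, fell 8.49-fold (adjusted p = 0.0219, limma), a call that ended without adjacent 2 or any single normal array. Acta2, smooth muscle actin, fell 7.50-fold and Synm, which links desmin filaments to the membrane, 22.1-fold (adjusted p = 0.0103 and 0.00255, limma).

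Among receptors through which the detrusor receives its signals, most of those called were lower. Of 23 muscarinic, purinergic, adrenergic and peptide receptors, 9 fell (39.1%) and 3 rose (13.0%), where 11.5% of all genes fell and 13.3% rose. There were 4, 5 and 4 falls and 2, 1 and 1 rises without normal 1, 2 and 3. P2rx1, the ATP-gated channel of detrusor, read 9.88, 6.84 and 4.75 in adjacent 1, 2 and 3 and 13.45, 13.42 and 13.67 in normal bladder. It fell 81.9-fold (adjusted p = 0.00653, limma), and adjacent 1 and 3 lay far apart. Chrm3, the muscarinic receptor that drives contraction, fell 7.08-fold (adjusted p = 0.0146, limma), but the call did not hold without any one of the normal arrays. Adrb3, the beta-adrenergic receptor that relaxes detrusor, was below a signal of 50 in all adjacent arrays and at least 8.24-fold lower than in normal bladder (adjusted p = 0.000771, limma). Tacr2, the receptor for neurokinin A, read 7.17, 3.44 and 2.28 in adjacent tissue, with 2 samples under a signal of 50, against 10.50, 10.30 and 10.70, and was at least 28.9-fold lower (adjusted p = 0.00725, limma). The 3 that rose, a share near that of all genes, were P2rx4, P2ry1 and P2ry2. They are receptors for extracellular nucleotides, as is P2rx1, which fell. P2ry2 read 10.45, 10.23 and 11.53 in adjacent tissue and 9.39, 9.06 and 8.97 in normal bladder, a call lost without normal 2 or normal 3.

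Ion channels and calcium handling showed the same side. Of 21 genes, 17 fell and 1 rose, and 11 and 10 fell without normal 1 and normal 2. Kcnmb1, the beta subunit of the large calcium-activated potassium channel, was at least 7.92-fold lower, and Pln, which encodes the calcium pump regulator phospholamban, fell 18.7-fold (adjusted p = 0.000355 and 0.000386, limma). Scn7a, a sodium channel, fell 24.9-fold (adjusted p = 0.00203, limma). The channel gene that rose was Trpc6, by at least 3.34-fold, a call lost without normal 2 or normal 3. Small heat shock protein genes of muscle, Hspb6, Hspb2 and Hspb8, made up 3 of the 4 falls among 14 heat shock genes, with Hspb6 down 28.7-fold (adjusted p = 0.00847, limma). Transcripts of skeletal muscle were also lower, with 6 of 14 genes called. Ckm, muscle creatine kinase, read 6.56, 5.67 and 5.18 in adjacent tissue and 10.02, 9.77 and 10.28 in normal bladder. Tnnc2, the troponin C of fast fibres, read 10.33 in adjacent 1, 5.25 in adjacent 2 and 3.21 in adjacent 3 against 13.40, 13.03 and 13.46, and its call was lost without adjacent 2 or any one normal array.

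**Figure D2:**
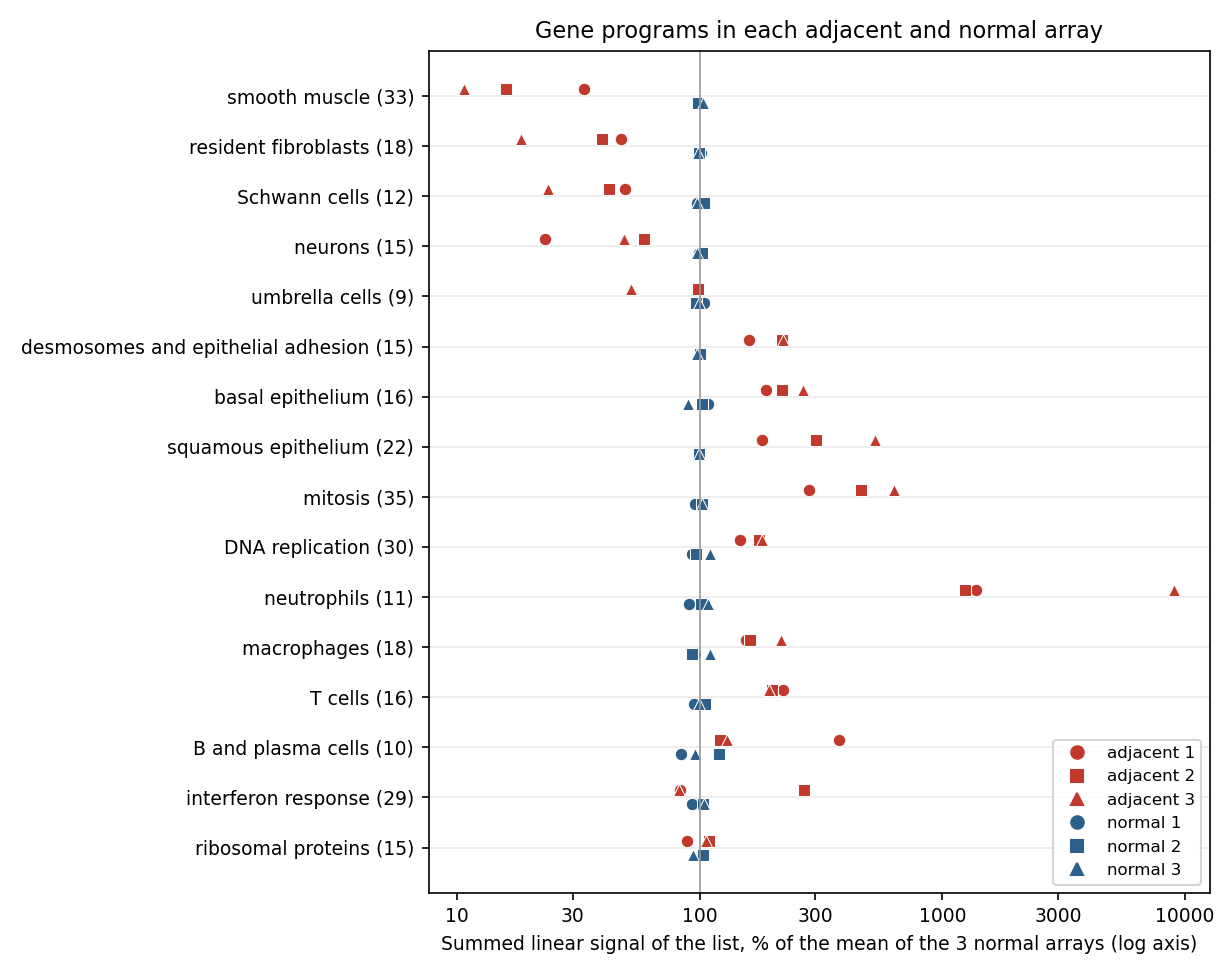
Each point is 1 array and gives the summed linear signal of a gene list as a percentage of the mean of the 3 normal arrays, on a log axis, with the number of measured genes in brackets. Adjacent arrays (red) lie left of normal arrays (blue) for muscle, fibroblasts and Schwann cells and right of them for basal and squamous epithelium, mitosis and neutrophils, while single adjacent arrays stand out for interferon response (adjacent 2) and for B and plasma cells (adjacent 1).

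Fibroblast genes were lower as well. Of 18 genes of resident fibroblasts, 14 fell and 0 rose (median -2.02), but 4, 4 and 5 were called without normal 1, 2 and 3, and 15 without adjacent 1. Their summed signal was 47.5%, 39.6% and 18.4% of normal in adjacent 1, 2 and 3. Ogn, a small leucine-rich proteoglycan, read 9.13, 8.27 and 5.21 in adjacent tissue and 11.99, 12.17 and 11.78 in normal bladder, a 21.8-fold fall that was lost without normal 2. Clec3b, which encodes the plasminogen-binding tetranectin, fell 13.4-fold (adjusted p = 0.00518, limma). Dcn, decorin, fell by only 2.16-fold, and the call was lost without any one normal array. Pdgfra, the receptor that marks bladder fibroblasts broadly, stood at 44.6% of normal and did not pass the test (adjusted p = 0.101, limma).

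Matrix genes followed in part. In a list of 21 fibrillar collagens and matrix proteins, 10 fell and 1 rose. There were 15 falls without adjacent 1 and 5 without adjacent 2, and without normal 1, 2 and 3 there were 3, 2 and 3. Col1a1 read 12.11, 11.76 and 9.86 in adjacent tissue and 13.42, 13.30 and 13.53 in normal bladder, and its fall was lost without any one of the normal arrays. Eln, elastin, fell 4.58-fold (adjusted p = 0.0136, limma, lost without normal 1 or 2), and Col3a1 did not pass the test (46.8% of normal, adjusted p = 0.065, limma). The gene that rose was Vcan, which encodes versican, a proteoglycan of provisional matrix. Its log2 signal was 10.75, 10.64 and 10.37 in adjacent tissue and 8.74, 9.12 and 9.43 in normal bladder, so the groups did not overlap (2.80-fold, adjusted p = 0.00296, limma).

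A few secreted stromal regulators went against the fall of fibroblast genes. Grem1, which encodes the BMP antagonist gremlin 1, read 11.98, 10.64 and 10.91 in adjacent 1, 2 and 3 and 7.22, 6.45 and 7.41 in normal bladder. It rose 17.8-fold (adjusted p = 0.000853, limma), and adjacent 1 was the highest. Of the 16 Hedgehog and BMP genes it was the one that rose (6.25%, against 13.3% of all genes). In this list 5 fell (31.25%, against 11.5%), and 2, 3 and 3 without normal 1, 2 and 3. Among 19 Wnt genes, 3 rose (15.8%, a share near the 13.3% of all genes) and 5 fell (26.3%, against 11.5%). There were 3 falls without any one normal array. Wif1, a secreted Wnt inhibitor, rose 5.45-fold, whereas Sfrp2, another, fell 9.56-fold (adjusted p = 0.00149 and 0.00716, limma). Igfbp3, the main binding protein of insulin-like growth factors, fell 4.56-fold (adjusted p = 0.00834, limma).

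Some nerve transcripts were low in every adjacent sample, while others lay near the normal level. Of 15 neuronal genes, 5 fell and 0 rose, where 11.5% of all genes fell. The median difference was -1.19, -0.08 and -1.42 in adjacent 1, 2 and 3, and over the group it was 0.00 with dim genes at their bound. Snap25, of synaptic vesicle fusion, and Uchl1, an abundant neuronal enzyme, did not pass the test (44.7% and 64.4% of normal, adjusted p = 0.236 and 0.320, limma), and both were within the normal range in adjacent 2. Nefl, the neurofilament light chain of axons, read 4.64, 3.48 and 4.56 in adjacent tissue and 9.89, 10.11 and 10.05 in normal bladder. All 3 adjacent values were under a signal of 50, which makes the fall at least 20.7-fold (adjusted p = 0.000271, limma). Stmn2, a microtubule regulator of growing axons, was at least 8.66-fold lower (adjusted p = 0.000774, limma). The medium neurofilament gene Nefm was at least 6.48-fold lower (adjusted p = 0.00453, limma). Of the 12 Schwann cell genes, 6 fell (3 without normal 2) and Mbp rose. Sox10, the transcription factor of glia, was at least 1.08-fold lower, a call lost without any one normal array. The glial calcium-binding protein gene S100b was at least 6.04-fold lower (adjusted p = 0.00358, limma). Mbp rose 1.82-fold on its brightest probe set, a call lost without any one of the normal arrays, while another of its probe sets stood at 74.5% of normal (adjusted p = 0.247, limma). Ngb, the gene of the neuronal oxygen-binding protein neuroglobin, read 4.87, 2.76 and 2.52 in adjacent tissue against 10.90, 10.61 and 10.75, at least 34.5-fold more in normal bladder (adjusted p = 0.000572, limma).

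Endothelial genes were called in both directions. Of 17 endothelial genes, 4 rose and 1 fell, against 13.3% and 11.5% of all genes. There were 2, 2, 2 and 1 rises without adjacent 2 and normal 1, 2 and 3, and 4 and 3 falls without adjacent 1 and 2. Pecam1, a general endothelial adhesion molecule, stood at 64.1% of normal (adjusted p = 0.0619, limma), and the VEGF receptor gene Kdr at 170% (adjusted p = 0.0309, limma, lost without adjacent 1, adjacent 2, normal 1 or normal 3). Flt1, another VEGF receptor gene, rose 3.68-fold on its brightest probe set (adjusted p = 0.0375, limma, lost without adjacent 2 or any one normal array), and its 2 other probe sets were not called. Hbb, a globin gene of red cells, fell 4.33-fold (adjusted p = 0.00351, limma).

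**Figure D3:**
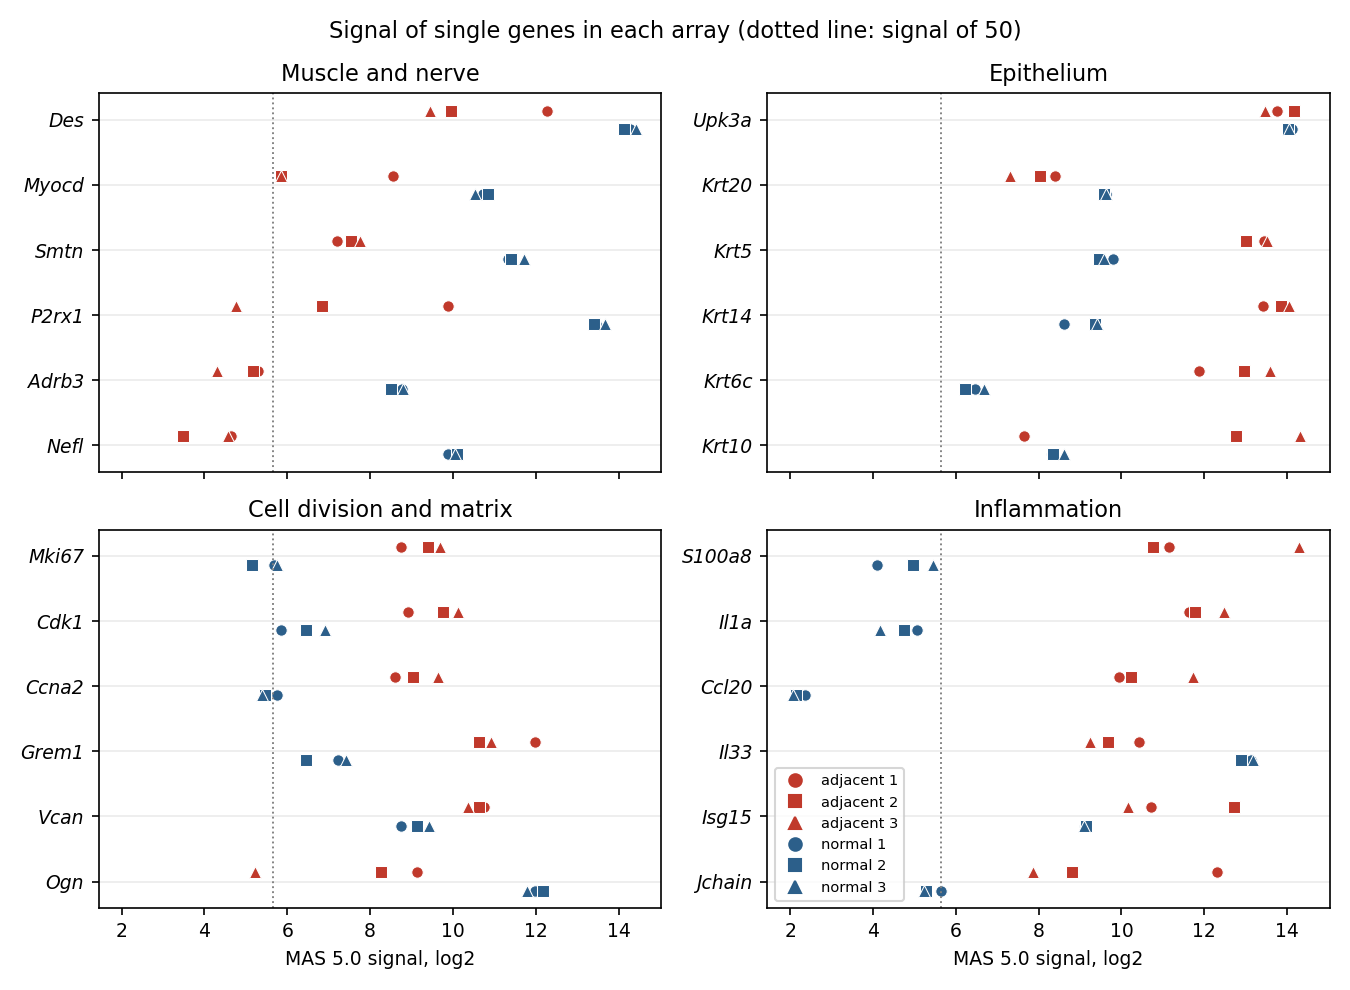
Log2 MAS 5.0 signal of 24 genes in 3 adjacent (red) and 3 normal (blue) arrays, with a dotted line at a signal of 50. Normal values mostly lie close together, while adjacent values spread over several log2 units for P2rx1, Krt10, Ogn and Jchain and lie close together for Smtn, Krt5 and Vcan.

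Among urothelial genes, most of basal cells were called and a smaller part of umbrella cells. Of 9 umbrella cell genes, 2 fell (22.2%) and 1 rose (11.1%), where 11.5% of all genes fell and 13.3% rose. When any array was left out, 1 to 3 fell and 0 to 2 rose. The summed signal was 97.4% and 98.9% of normal in adjacent 1 and 2 but 52.2% in adjacent 3. Upk3a, a uroplakin, read 13.76, 14.16 and 13.46 in adjacent tissue and 14.11, 14.03 and 14.04 in normal bladder. The groups overlapped, and Upk2 and Upk1a did not pass the test either (35.5% and 56.1% of normal, adjusted p = 0.204 and 0.178, limma). Krt20, the umbrella cell keratin, did fall: it read 8.41, 8.04 and 7.32 in adjacent tissue against 9.64, 9.58 and 9.64 (3.24-fold, adjusted p = 0.00528, limma). Krt18, a keratin of simple and umbrella cells, fell 2.11-fold (adjusted p = 0.0483, limma), a call lost without adjacent 2, adjacent 3 or any one normal array.

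Basal genes rose. Of 16 measured, 10 rose and 1 fell, with a median of 1.20, and the count of rises was 14 without adjacent 1 and 7 to 10 without any other array. Krt5, the keratin of basal cells, read 13.46, 13.00 and 13.51 in adjacent tissue and 9.79, 9.46 and 9.57 in normal bladder. This 13.1-fold rise was nearly equal in the 3 samples (adjusted p = 0.000211, limma). Its partner Krt14, which marks progenitor cells, rose 25.2-fold (adjusted p = 0.000268, limma). Krt17, induced in basal cells under stress, read 8.62, 10.80 and 12.84 in adjacent tissue and 6.64, 6.24 and 5.95 in normal bladder, a call lost without normal 2 or 3. Tp63, the transcription factor of basal cells, rose 2.32-fold, a call lost without normal 3.

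Dst was counted as the basal gene that fell, but its probe sets disagreed. The gene makes a hemidesmosome protein in epithelium and other isoforms in muscle and nerve. Of its 5 probe sets, 3 were lower in adjacent tissue and 2 higher, all past the threshold in limma. On the brightest, which stands for the gene here, the log2 signal was 12.03, 11.34 and 10.69 in adjacent tissue and 13.14, 13.10 and 13.04 in normal bladder. On another it was 9.59, 10.13 and 10.57 against 8.77, 9.04 and 8.64 (adjusted p = 0.0118, limma). Which isoform each probe set reads was not tested.

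Squamous genes rose too, but unevenly among the samples. Of 22 measured, 14 rose and 0 fell (median 2.77, or 2.62 with dim genes at their bound), with 19 rises without adjacent 1 and 10 to 14 without any other array. The summed signal was 181%, 301% and 527% of normal in adjacent 1, 2 and 3. Krt6c, a keratin of stressed and hyperproliferative epithelium, read 11.88, 12.96 and 13.60 in adjacent tissue and 6.47, 6.22 and 6.68 in normal bladder, an 81.9-fold rise (adjusted p = 0.000274, limma). Sprr1b, a cornified envelope precursor, was at least 39.4-fold higher (adjusted p = 0.00712, limma), and Tgm1, the enzyme that cross-links such precursors, was at least 21.6-fold higher (adjusted p = 0.00782, limma). Its relative Sprr1a rose only 1.38-fold (adjusted p = 0.0365, limma, lost without adjacent 2, adjacent 3 or any one normal array). Ivl, involucrin, had the opposite order among the samples, at 10.56, 9.25 and 7.38 in adjacent 1, 2 and 3 against 6.42, 5.92 and 7.14, and its call was lost without adjacent 1, adjacent 2 or any one normal array. Krt10, the keratin of terminal squamous cells, separated the samples: it read 7.64 in adjacent 1, 12.76 in adjacent 2 and 14.32 in adjacent 3 against 8.33, 8.34 and 8.62 in normal bladder. Adjacent 1 lay below the normal arrays and the others far above them, and the difference did not pass the test (adjusted p = 0.181, limma). Krt13, a keratin of stratified mucosa, likewise read 5.32 in adjacent 1 but 9.36 and 10.24 in adjacent 2 and 3 (adjusted p = 0.0751, limma).

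Genes of epithelial adhesion, with epithelial transcription factors such as Elf3 among them, served as a reference for epithelial RNA. Of 15 genes of desmosomes and epithelial adhesion, 11 rose and 0 fell (13 rises without adjacent 1), and the summed signal was 160%, 219% and 222% of normal. Cdh1, E-cadherin, rose 1.62-fold and Dsp, desmoplakin, 3.66-fold (adjusted p = 0.00803 and 0.00192, limma). Elf3, an epithelial transcription factor, rose 5.38-fold (adjusted p = 0.00551, limma). Arrays were then centred on the mean log2 signal of these 15 genes, an alternative chosen after the data were seen. The 15 genes did not move together: after centring, 4 of them were called higher and 4 lower. The reference is therefore no neutral measure of epithelial content. Centring lowered the median over all genes to -1.19, so that 9306 genes (65.5%) were called, 266 (1.87%) of them higher and 9040 (63.6%) lower. The higher ones included 10 of 22 squamous, 6 of 16 basal and 18 of 35 mitosis genes, but 0 of 9 umbrella cell genes. The median changed sign in 28 of 63 lists, among them DNA replication, ribosome biogenesis, macrophages, interferon response, p53 targets, xenobiotic defence and cholesterol synthesis, whose directions below hold for the deposited scaling.

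Genes of cell division gave more rises than any other of the 63 lists, which were chosen with earlier results of these data known. Of 35 mitosis genes, 31 rose and 0 fell (median 2.35, or 1.98 with dim genes at their bound), and the summed signal was 282%, 462% and 632% of normal in adjacent 1, 2 and 3. The count was 18 without adjacent 2, 19 without normal 1 and 33 without adjacent 1. Mki67, the antigen of cycling cells, read 8.74, 9.41 and 9.68 in adjacent tissue and 5.67, 5.15 and 5.76 in normal bladder (at least 12.4-fold, adjusted p = 0.000654, limma). Ccna2, cyclin A2, was at least 10.9-fold higher (adjusted p = 0.000731, limma). Kif2c, a kinesin that corrects spindle attachments, was at least 3.28-fold higher and Top2a, topoisomerase II alpha, at least 6.62-fold higher (adjusted p = 0.00385 and 0.00307, limma). Ttk, a spindle checkpoint kinase, was at least 3.32-fold higher, a call lost without adjacent 2, adjacent 3 or normal 1. The 4 mitosis genes not called were Aurka, Prc1, Dlgap5 and Hmmr. Prc1, a spindle midzone protein, stood at 68.1% of normal (adjusted p = 0.226, limma).

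Many mitosis promoters carry CCAAT boxes, bound by the factor NF-Y, and a CHR element, through which the DREAM and B-MYB complexes act in the known control of such genes. Both motifs were searched on both strands, as CCAAT and TTTGAA, in the 250 bases before each transcript start in RefSeq (GRCr8), and a match of one could overlap a match of the other. For 31 of the 35 mitosis genes a promoter was at hand. A CCAAT box was present in 24 of them (77.4%, against 34.3% of 27456 promoters) and both motifs in 14 (45.2%, against 5.76%). Cdk1, Ccnb2 and Cks2 are shown because they rose and hold several boxes in the 160 bases before the start, printed on the strand of the gene with matches in capitals.
Cdk1, chr20:19265133-19265292, plus strand: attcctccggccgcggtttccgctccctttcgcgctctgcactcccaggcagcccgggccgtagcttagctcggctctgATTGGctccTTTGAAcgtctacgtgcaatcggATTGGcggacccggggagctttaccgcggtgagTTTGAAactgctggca
Ccnb2, chr8:79981659-79981818, minus strand: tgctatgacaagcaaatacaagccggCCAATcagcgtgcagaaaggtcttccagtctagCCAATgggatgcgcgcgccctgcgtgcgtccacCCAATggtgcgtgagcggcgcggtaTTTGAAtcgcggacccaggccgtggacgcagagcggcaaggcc
Cks2, chr17:13727520-13727679, minus strand: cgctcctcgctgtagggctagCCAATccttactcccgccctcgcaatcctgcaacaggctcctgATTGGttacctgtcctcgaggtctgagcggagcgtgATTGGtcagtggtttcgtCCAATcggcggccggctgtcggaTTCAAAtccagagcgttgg
The matches read CCAAT, or ATTGG on the other strand, and TTTGAA, or TTCAAA on the other strand. Cdk1, the kinase that starts mitosis, read 8.93, 9.76 and 10.13 in adjacent tissue and 5.85, 6.45 and 6.92 in normal bladder (9.18-fold, adjusted p = 0.00188, limma). Ccnb2, cyclin B2, rose 5.93-fold, and Cks2, a subunit of the kinase, 8.77-fold (adjusted p = 0.0038 and 0.000739, limma). Prc1, Hmmr and Dlgap5, which were not called, also hold a CCAAT box. In the 26 smooth muscle promoters at hand, 9 (34.6%) held a CCAAT box and 2 (7.69%, against 1.5% of all) the CArG box of serum response factor. These matches describe letters, and no binding was measured.

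**Figure D4:**
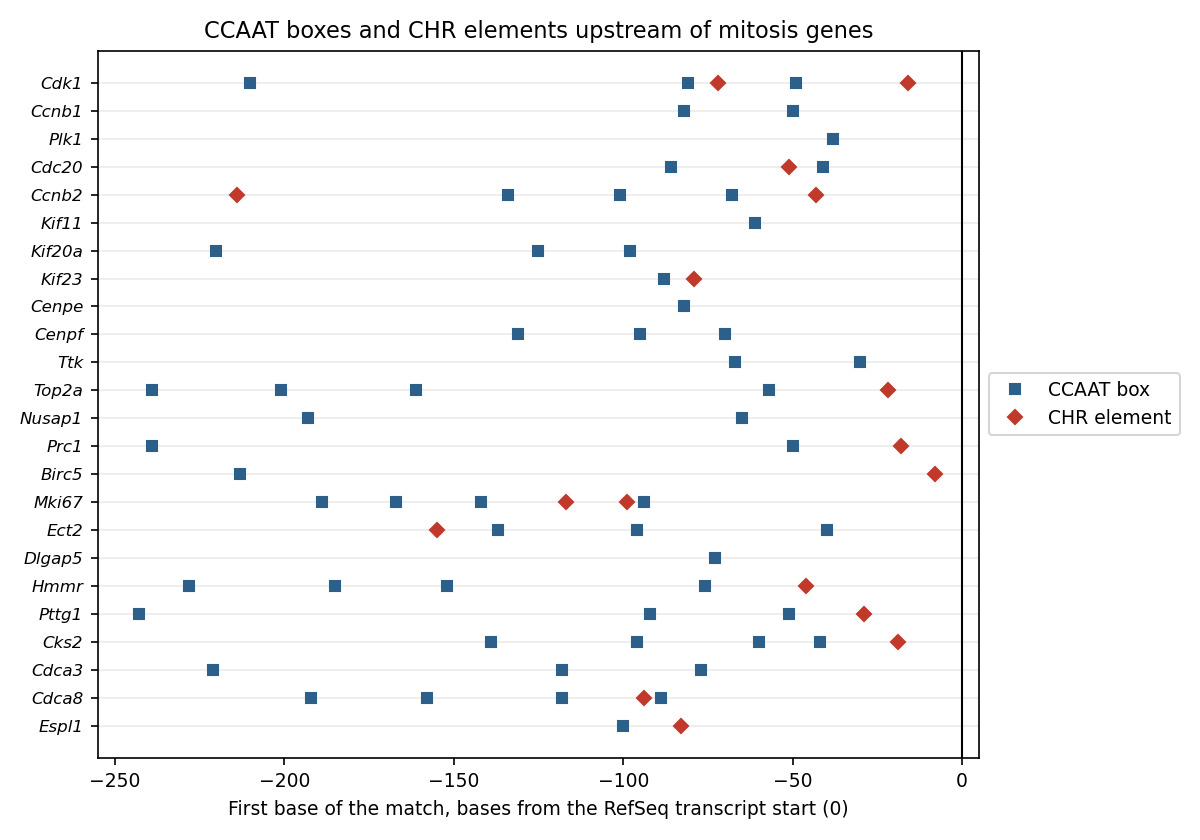
Position of CCAAT boxes (blue squares) and CHR elements (red diamonds) in bases before the RefSeq transcript start at 0, for the 24 mitosis genes with a match in 250 bases. CHR elements often lie nearest to the start, as in Cdk1, Ccnb2, Top2a, Prc1, Pttg1 and Cks2.

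DNA replication genes rose by less. Of 30, 17 rose and 0 fell (median 0.85), with 12 to 18 rises when any array was left out. Mcm5, a subunit of the replicative helicase, rose 3.75-fold, and Uhrf1, which maintains DNA methylation at the fork, at least 6.48-fold (adjusted p = 0.00924 and 0.0072, limma). Ribosome biogenesis genes were called in 10 of 18 cases, all higher, but in 4, 3 and 3 without normal 1, 2 and 3. Of the 15 ribosomal protein genes, 0 were called in limma (median -0.02, 1 at an unadjusted p under 0.05), and 1 without adjacent 1. Among 17 p53 targets, 8 rose and 1 fell: Cdkn1a, the cell cycle inhibitor p21, rose 2.84-fold (adjusted p = 0.00214, limma), and Sesn1 fell 2.95-fold, a call lost without any one of the normal arrays.

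Neutrophil genes rose, and most in adjacent 3. Of 11, 6 rose and 0 fell, also without adjacent 1, and the median was 2.49, or 1.13 with dim genes at their bound. By sample the median was 2.04, 0.88 and 4.69 in adjacent 1, 2 and 3. The summed signal was 1370%, 1236% and 9009% of normal, a sum that includes S100a8 and S100a9, which inflamed epithelium also makes. S100a8, a subunit of the calprotectin complex of neutrophils and inflamed epithelium, read 11.15, 10.75 and 14.29 in adjacent tissue and 4.09, 4.97 and 5.44 in normal bladder. It was at least 85.7-fold higher (adjusted p = 0.00192, limma), most of all in adjacent 3. Csf3r, the receptor for granulocyte colony-stimulating factor, was at least 7.65-fold higher (adjusted p = 0.00616, limma), and Il1r2, a decoy receptor of interleukin 1, rose 18.9-fold (adjusted p = 0.00115, limma). Mmp9, the gelatinase stored in neutrophil granules, was at least 4.52-fold higher (adjusted p = 0.00705, limma).

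The ligands that attract neutrophils rose with them. Of 22 chemokine genes, 11 rose and 2 fell (6, 6 and 5 rises and 1, 1 and 0 falls without normal 1, 2 and 3). Cxcl1 read 11.39, 12.09 and 13.49 in adjacent tissue and 7.92, 6.31 and 5.74 in normal bladder, a 50.8-fold rise (adjusted p = 0.00173, limma). Cxcl2 was at least 44.8-fold higher (adjusted p = 0.00425, limma). Ccl20, which draws dendritic and T helper cells to epithelium, was at least 31.9-fold higher (adjusted p = 0.000268, limma). The 2 that fell were Cxcl12 and Cxcl14. Cxcl12, made by stromal cells, fell 4.16-fold on its brightest probe set, a call lost without any one of the normal arrays, and of its other probe sets 1 was also lower (28.1% of normal, adjusted p = 0.0235, limma) and 1 stood at 100.1%.

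Ligands of the interleukin 1 family went opposite ways. Il1a read 11.63, 11.78 and 12.49 in adjacent tissue and 5.06, 4.76 and 4.18 in normal bladder, at least 80.0-fold higher (adjusted p = 0.000146, limma). Il1b rose 22.8-fold (adjusted p = 0.00282, limma). Il33 read 10.42, 9.68 and 9.23 in adjacent tissue against 13.13, 12.90 and 13.17, a 9.78-fold fall (adjusted p = 0.000654, limma). None of the 3 genes had overlapping groups, a trait shared by 46.7% of all genes.

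Other immune cells gave smaller signals. Of 18 macrophage genes, 7 rose and 0 fell (4 without normal 2), among them Cd68, a lysosomal marker, by 2.34-fold (adjusted p = 0.0027, limma). Cd14, the endotoxin co-receptor, rose 4.41-fold, a call lost without any one normal array. The resident macrophage gene Cd163 stood at 80.8% of normal (adjusted p = 0.701, limma). Of 16 T cell genes, 5 rose (3 without adjacent 2 or any one normal array). Cd3d, a chain of the T cell receptor complex, was at least 3.35-fold higher (adjusted p = 0.000776, limma), and Cd3e, its partner, did not pass the test on its brightest probe set (adjusted p = 0.0975, limma) but was higher on the other (log2 difference 4.47, adjusted p = 0.00173, limma). Jchain, which joins secreted IgA and IgM in plasma cells, read 12.31 in adjacent 1, 8.81 in adjacent 2 and 7.86 in adjacent 3 against 5.24 to 5.64 in normal bladder. The rise, at least 16.2-fold, was lost without any one normal array. Mzb1, an immunoglobulin chaperone of plasma cells, had the same order (9.33, 7.51 and 6.23), and its call was lost without adjacent 2 or any one normal array. Of 9 mast cell genes, 0 were called in limma (3 at an unadjusted p under 0.05, and 1 and 3 called without adjacent 2 and 3), and the groups did not overlap in 2 of them, where 46.7% of all genes did not.

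Interferon response genes were highest in 1 sample. Of 29 genes, 9 rose and 0 fell (3 rises without any one normal array, and 7 rises and 3 falls without adjacent 2), while the summed signal was 83.4%, 268% and 82.5% of normal in adjacent 1, 2 and 3. Mx1, an antiviral GTPase, read 8.98, 11.73 and 7.18 in adjacent tissue and 7.79, 7.49 and 7.86 in normal bladder. Adjacent 3 lay below the normal range, and the difference did not pass the test (adjusted p = 0.309, limma). Ifit3, in contrast, read 9.08, 10.20 and 9.88 against 5.84, 6.35 and 6.06 (12.4-fold, adjusted p = 0.000731, limma). Rsad2, the antiviral enzyme viperin, rose 10.5-fold (adjusted p = 0.00561, limma), and Isg15, a ubiquitin-like modifier, 4.21-fold, a call lost without any one normal array. Complement C3 rose 31.0-fold (adjusted p = 0.00262, limma).

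Of 8 genes of MHC class II, 3 rose (37.5%) and 0 fell under the deposited scaling, where 13.3% of all genes rose. These genes include those of the RT1 complex on chromosome 20, the MHC of the rat. Both probe sets of RT1-Db1 were called higher, but those of RT1-Bb gave opposite readings and those of RT1-Ba differed. RT1-Bb, the beta chain of the RT1-B molecule, has 2 probe sets. On the brighter, the log2 signal was 10.60, 11.25 and 10.51 in adjacent tissue and 3.44, 4.33 and 4.75 in normal bladder, at least 35.3-fold higher (adjusted p = 0.000268, limma). On the other it was 5.44, 3.08 and 6.40 in adjacent tissue and 10.69, 10.45 and 10.62 in normal bladder, a log2 difference of -5.62 (adjusted p = 0.00251, limma). Both readings had groups far apart, in opposite directions. RT1-Ba, the alpha chain, has 4 probe sets: 2 rose by 7.42 and 7.05 on the log2 scale (adjusted p = 0.000146 and 0.000268, limma), and 2 were not called. On the brightest of the 4, adjacent 2 read 6.31 and the tumor with the same number 5.08, while the other adjacent and normal arrays read 11.32 to 12.55 and the other tumors 11.43 and 11.53. Cd74, the chain that all class II molecules share during assembly, differed little under the deposited scaling, at 127% of normal (adjusted p = 0.271, limma). Of the 4525 genes with more than 1 probe set, 16 had probe sets called in opposite directions, and RT1-Bb and Dst were the 2 with more than 4 log2 units between them. SD rats are an outbred stock, and no RT1 type is given in the sources used here. Whether sequence differences between the animals move these probe sets was not tested.

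**Figure D5:**
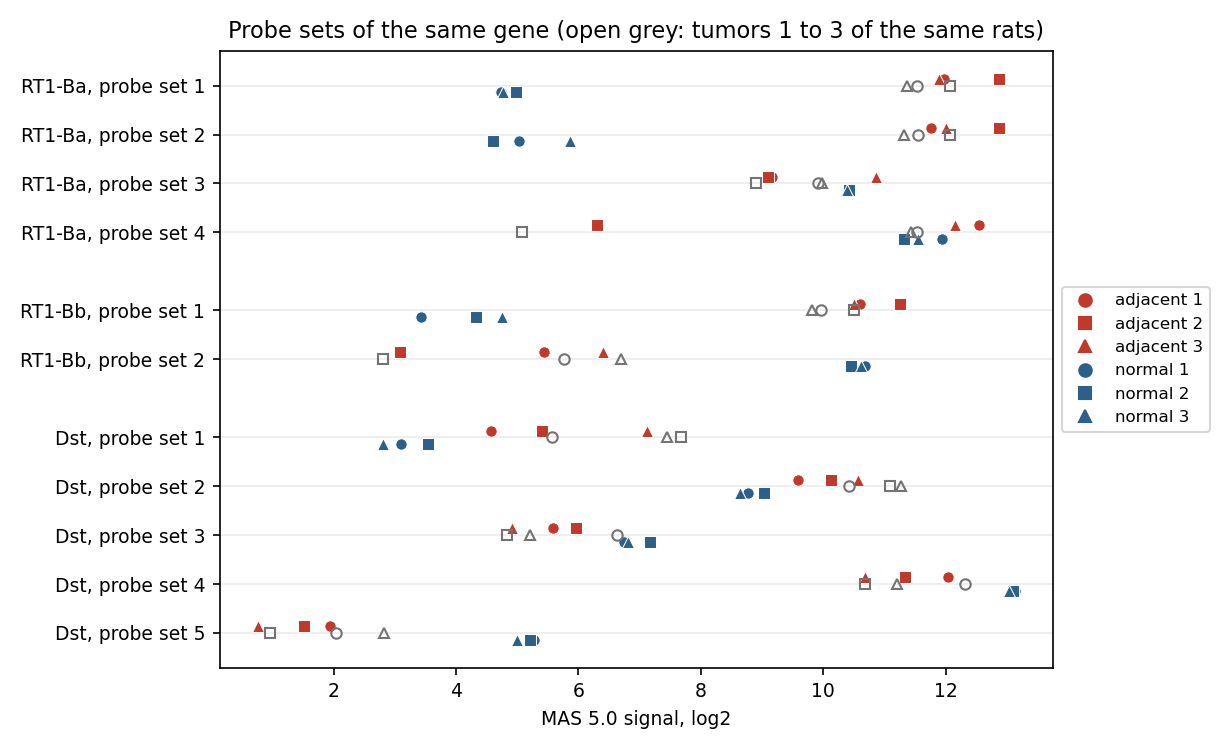
Log2 signal of every probe set of RT1-Ba, RT1-Bb and Dst in adjacent (red), normal (blue) and tumor (open grey) arrays, with probe sets of a gene in order of their difference. Both RT1-Bb probe sets separate the groups, in opposite directions, tumors lie near adjacent tissue, and adjacent 2 and tumor 2 stand alone on the RT1-Ba probe set with the lowest difference.

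Proteases and growth factors of epithelium rose. Serpinb2, an inhibitor of urokinase, read 11.43, 12.88 and 13.74 in adjacent tissue and 0.00, 0.00 and 1.71 in normal bladder. The normal arrays were all under a signal of 50, so the rise was at least 131-fold (adjusted p = 0.000268, limma). Serpinb10, of the same clade, was at least 33.6-fold higher (adjusted p = 0.000472, limma). Plau, urokinase itself, rose 5.75-fold (adjusted p = 0.00546, limma). Of 14 metalloproteinases and their inhibitors, 7 rose and 3 fell (1, 1 and 0 falls without normal 1, 2 and 3). Mmp7, a matrilysin of epithelium, read 8.25, 8.23 and 13.38 in adjacent tissue and 1.99, 2.56 and 2.48 in normal bladder, at least 19.8-fold higher and highest in adjacent 3 (adjusted p = 0.00623, limma). Mmp2, a stromal gelatinase, stood at 96.8% of normal (adjusted p = 0.942, limma).

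Among 9 EGF receptor ligands and receptors, 4 rose and 0 fell. Areg, amphiregulin, read 10.04, 10.95 and 10.53 in adjacent tissue and 7.79, 7.51 and 7.72 in normal bladder (7.10-fold, adjusted p = 0.00068, limma). Nrg1, a neuregulin, rose 5.23-fold on its brightest probe set (adjusted p = 0.0074, limma), while its 7 other probe sets were not called. Hbegf rose 6.53-fold, a call lost without adjacent 2 or any one normal array. Fgfbp1, which releases fibroblast growth factors from matrix, was at least 39.7-fold higher, and Duox2, an epithelial NADPH oxidase that makes hydrogen peroxide, rose 73.2-fold (adjusted p = 0.00127 and 0.000572, limma).

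Defence and metabolism genes shifted in part. Of 27 xenobiotic and antioxidant genes, 11 rose and 2 fell. Gpx2, an epithelial glutathione peroxidase, read 12.15, 13.19 and 13.91 in adjacent tissue and 7.34, 7.69 and 7.71 in normal bladder (45.3-fold, adjusted p = 0.000411, limma). Nqo1, a quinone reductase, rose 4.59-fold (adjusted p = 0.00105, limma), and Slc7a11, the cystine importer, 23.0-fold (adjusted p = 0.000731, limma). Cholesterol synthesis genes were higher in 10 of 16 cases (6 without normal 2), Sqle by 3.33-fold (adjusted p = 0.0049, limma).

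Glucose use and oxidation did not move as blocks. Of 22 glycolysis and hypoxia genes, 7 rose (31.8%) and 3 fell (13.6%), where 13.3% of all genes rose and 11.5% fell. There were 2, 1 and 1 rises without normal 1, 2 and 3. Slc2a1, the glucose transporter GLUT1, rose 6.04-fold (adjusted p = 0.00203, limma). Of 25 respiratory chain genes, 0 were called in limma (median 0.01, 2 at an unadjusted p under 0.05), 3 without adjacent 1 and 5 with median centring. Idh2, mitochondrial isocitrate dehydrogenase, read 10.97, 10.69 and 10.60 in adjacent tissue and 13.00, 12.81 and 12.89 in normal bladder, a 4.44-fold fall (adjusted p = 0.0003, limma). Ppargc1a, a coactivator of mitochondrial genes, was at least 2.65-fold lower, a call lost without adjacent 1, adjacent 3 or any one normal array.

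The study's own interest was Mapk9, which encodes the stress kinase JNK2. It read 5.99, 6.54 and 5.65 in adjacent tissue and 7.69, 7.73 and 7.76 in normal bladder on its brighter probe set. The groups did not overlap (3.17-fold fall, adjusted p = 0.00829, limma), and on the other probe set the log2 difference was -0.58 (adjusted p = 0.343, limma). Mapk8, which encodes JNK1, read 9.25, 8.98 and 8.63 in adjacent tissue and 9.24, 9.27 and 9.26 in normal bladder and did not pass the test (81.1% of normal, adjusted p = 0.314, limma).

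Adjacent tissue was also set against the tumors of the same rats, to see where it differed from them. In limma, 0 of 14217 genes were called (0.0%), and 845 of 31042 probe sets had an unadjusted p under 0.05, where 5% would be 1552. The count of genes called was also 0 with the replicate number as a block, with all 9 arrays in 1 fit or after quantile normalization. The titles give this number and do not name the animal. Without any one array the count was 0 as well. Over these fits the probe sets with an unadjusted p under 0.05 ranged from 582 to 1824. A p that misses the threshold does not show that adjacent tissue and tumor were alike. Across probe sets, r between adjacent and tumor arrays was 0.897 to 0.930.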

How the data were processed

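RNA of 9 bladder samples (3 adjacent tissues, 3 normal bladders and 3 tumors) was read on Affymetrix 3′ arrays. Per the methods and labels, the authors extracted RNA with Trizol and RNeasy, labelled cRNA with a 3′ IVT kit and computed MAS 5.0 signals. The values were deposited as log2 signals by the authors, and all arrays have the same trimmed mean. This mean leaves out the brightest and dimmest 2% of probe sets, so the scaling does not fix the total. Summed over all genes, the signal was 101%, 104% and 105% of normal in adjacent 1, 2 and 3. A fall of transcripts inside the trimmed range can still raise the others. 3′ labelling makes probe sets far from the 3′ end sensitive to RNA quality. Arrays have no read depth, and 3 per group limit the precision. Labels do not say whether RNA was pooled, and p-values measure the spread between these samples.

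Of 31099 probe sets, 57 array controls were left out. A gene was named from the platform annotation, by 20826 probe sets with 1 symbol (436 have several and 9780 none), and stands for its probe set with the highest mean over all 9 arrays. Adjacent and normal arrays were compared with limma 3.58.1 in R 4.3.3 (lmFit, then eBayes with trend). Benjamini-Hochberg adjustment was over 31042 probe sets, with a threshold of 0.05. On simulated data with the observed spread pooled over both groups, the procedure recovered 10 of 100 changes of 2-fold and 64 of 100 changes of 4-fold, with 4 false calls. No other probe sets were changed there, whereas 5873 were called in the data, which makes the adjustment stricter in the simulation. Spread also differed between adjacent and normal arrays. These rates therefore do not give the sensitivity of this comparison. A gene that was not called may still differ. A permutation test of 3 against 3 samples cannot give an exact p below 0.1, so none is given. Where the mean of the lower group was under a signal of 50, a fold is the mean of the higher group over 50 and is written as "at least". The 63 lists held 1059 genes, of which 933 were measured. Members and lists were chosen with earlier results of these data known. Genes named are the 12 largest rises and falls held without each array, and from each list the first 3 measured genes and the largest 3 called rises and falls, of which the text gives a part, besides Mapk9 and Mapk8. Aurka, Ccna2, Ccnb2, Cks2, Dlgap5, Hmmr, Hspb8, Il1r2, Itga8, Krt10, Krt13, Myocd, Prc1, Pttg1, RT1-Ba, Smtn, Sprr1a and Top2a fall outside this rule and were chosen after their values were seen. Alternatives were quantile normalization, median centring, leaving out the dimmest 40% of probe sets, a pseudocount of 50, eBayes without the trend, all 9 arrays in 1 fit, a replicate block, probe sets averaged per gene, the methods' t-test and leaving out each array. Centring on epithelial adhesion genes was chosen after the data were seen.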

Additional observations from a re-analysis of the deposited data

How the results depend on the processing

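The count of 3531 genes was 3643 after quantile normalization, 4320 with median centring, 3669 with the filter on dim probe sets, 3693 with the pseudocount, 2971 with all 9 arrays in 1 fit and 3317 with probe sets averaged per gene. It was 1894 without the variance trend (903 higher, 991 lower), 2310 by the methods' t-test at an unadjusted p of 0.05 and a fold of 2 (987 higher), and 1480 by that t-test after Benjamini-Hochberg adjustment (864 higher, 616 lower). Median centring gave 3012 higher. Centring on epithelial adhesion genes, chosen after the data were seen, gave 9306 (266 higher, 9040 lower). Leaving out 1 array gave 1664 to 4201 genes (848 to 2217 higher, 805 to 1984 lower).

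The adjusted t-test called 4 basal, 5 squamous, 3 neutrophil and 11 mitosis genes higher and 10 smooth muscle and 2 resident fibroblast genes lower. Epithelial centring left 6 basal and 18 mitosis genes higher. Resident fibroblasts had 4 lower genes without the trend, 4 with all 9 arrays, and 4 to 16 when 1 array was left out, and mitosis had 18 to 33 higher. The cause was not tested. The sign of RT1-Ba turned to 3.12 with the mean of its probe sets, 2 of which rise steeply, against -1.26 on the brightest. Under epithelial centring the differences of Kdr, Cdh1, Mbp, Sprr1a, P2rx4 and P2ry1 also turned, to -0.43, -0.50, -0.34, -0.73, -0.27 and -0.02. That of Cd74, not called under the deposited scaling, turned from 0.35 to -0.85 (adjusted p = 0.0062, limma).

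With the replicate number as a block, 2864 genes were called (1460 higher, 1404 lower). Deviations of same-numbered adjacent and normal arrays correlated at 0.029, 0.031 and 0.008, and each adjacent array correlated best with its own number. Same-numbered adjacent and tumor arrays correlated at 0.240, 0.044 and 0.137. Whether same-numbered arrays share more than a number was not tested. In a set of 124 genes named here, 107 were called. Dst, whose probe sets were called in both directions, and some genes named without values were not in this set. Of the 107 genes, 3 lost the call under the block, 61 under the adjusted t-test and 26 without the trend. With all 9 arrays 21 lost it, and with the mean of probe sets 10. Of 56 other probe sets of these 107 genes, 26 were called in the same direction and 1 in the opposite. The call of 80 held without each array in turn.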
